A study of Rattus norvegicus with 9 samples.

Results

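Neurofilament and axonal cytoskeleton genes were examined in the infarcted hemisphere of rats after cerebral ischemia/reperfusion. The 10 genes were Nefl, Nefm, Nefh, Ina, Prph, Tubb3, Map2, Mapt, Stmn2, and Gap43, and they were chosen by gene symbol, with earlier results of these data known. They are 10 of the 19293 gene symbols in the array files and had 12 of the 30367 probes, 2 each for Mapt and Stmn2 and 1 for each of the other genes. All 12 probes were well above background on all 9 arrays and were among the 23747 probes tested. Where a gene had 2 probes, the brighter one stands for it.

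The samples were brains of male Sprague Dawley rats on day 14, with 3 Sham, 3 I/R, and 3 DHI arrays. I/R rats had 2 h of middle cerebral artery occlusion followed by reperfusion. DHI rats had the same occlusion and received Danhong injection through the tail vein daily after the surgery, at a dose that the methods give in different units. Sham rats had the external carotid artery exposed with no filament inserted, and were injected with the solvent in place of the drug. The methods do not describe the injection of the I/R rats separately, and no age was given. The study describes the arrays of a group as biological replicates, and the labels do not tie them to individual rats.

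Neurofilaments are the intermediate filaments of axons and set their calibre. In the brain they are built from the light, medium, and heavy chains (Nefl, Nefm, and Nefh) together with alpha-internexin (Ina), while peripherin (Prph) is mainly a subunit of peripheral neurons and of some central neurons that project to the periphery. Microtubules made of tubulins such as the neuronal beta-tubulin Tubb3 run beside them, bound by Map2 in dendrites and by tau (Mapt) in axons. Stmn2 and Gap43 are proteins of the growth cone, the former a regulator of microtubule assembly and the latter a membrane protein of growing and sprouting axons.

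Each gene was read through 60 bases of its transcript, and 6 of these probes are given as examples for the filament, tau, and growth cone genes. Each held at least 1 reading frame with no stop codon before its end, which does not by itself show that it lies in coding sequence. The capitals mark a stop codon that closes the Prph probe.
Nefl, rn4 chr15:47638898-47638957, plus strand: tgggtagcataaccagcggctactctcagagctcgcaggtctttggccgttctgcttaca
Nefh, rn4 chr14:85595648-85595707, minus strand: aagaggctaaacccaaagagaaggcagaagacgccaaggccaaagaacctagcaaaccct
Prph, rn4 chr7:137839568-137839627, plus strand: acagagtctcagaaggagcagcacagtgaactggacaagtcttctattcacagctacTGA
Mapt, rn4 chr10:93504770-93504829, plus strand: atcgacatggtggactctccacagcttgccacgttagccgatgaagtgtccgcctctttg
Stmn2, rn4 chr2:95290726-95290785, minus strand: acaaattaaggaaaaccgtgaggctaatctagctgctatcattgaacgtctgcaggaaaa
Gap43, rn4 chr11:60083320-60083379, plus strand: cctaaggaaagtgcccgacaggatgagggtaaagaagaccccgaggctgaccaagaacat
The Nefm probe lay on the minus strand of chr15:47698645-47698704, 59687 bases from the Nefl probe. The other representative probes were at chr1:252340311-252340370 for Ina, chr19:53751646-53751705 for Tubb3, and chr9:65255917-65255976 for Map2. Coordinates are those of the array files, and no exon annotation of that build was used.

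The 75th percentile of the spot intensities was 1816 to 3464 per array, 75.2% to 78.9% of the probes exceeded background, and no probe was saturated. The DHI arrays were on a slide of their own and the Sham and I/R arrays shared another, so the slide cannot be told apart from the treatment. Arrays of a group also differed among themselves. The summed level of 9 neuron markers, on a linear scale in units of the 75th percentile of the array, was 80.3 to 92.5 in Sham, 8.11, 16.5, and 42.5 in I/R 1, 2, and 3, and 27.3, 86.3, and 71.5 in DHI 1, 2, and 3. The summed level of 7 microglia and macrophage markers was 8.35 to 10.3 in Sham, 110.6, 87.4, and 38.6 in I/R, and 58.7, 11.6, and 11.9 in DHI. DHI 1 thus lay within the I/R range for both lists. The summed level of 4 choroid plexus markers was 93.2 in I/R 3, 136.0 in DHI 1, and 74.4 in DHI 3, and at most 7.44 on the other arrays. The high sums came mostly from Ttr. In bulk tissue, fewer neurons and less RNA per neuron cannot be told apart.

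All levels below are log2 signals minus the 75th percentile of their array, so that 0 is that percentile. Levels of different probes are not compared with each other. A difference was called at the methods' thresholds (unadjusted p under 0.05 and FC over 1.5, with limma) or with a Benjamini-Hochberg adjusted p under 0.05 over all tested probes. The words rose and fell are used for the latter only.

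First, the I/R group was compared with Sham, which asks what the ischemic injury left of these transcripts at day 14. All 10 genes were lower in I/R at the methods' thresholds, against 43.1% of the tested probes called in either direction and 22.3% called lower. A total of 8, all but Map2 and Gap43, fell with an adjusted p under 0.05, against 32.4% of the probes in either direction and 15.8% lower. No I/R array reached the lowest Sham array for any of the 10 genes, while the 2 groups were apart for 62.5% of all tested probes in either direction and 35.8% in that direction. The median log2 fold change of the 10 genes was -1.92, and that of all tested probes was -0.10.

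The neurofilament chains had the largest differences among the 10 genes. Nefl was 1.35, 1.62, and 1.73 on the Sham arrays and -2.81, -2.08, and 0.47 on the I/R arrays. Nefm, which joins the light chain in the filament core and carries a long side arm, was 3.09, 3.63, and 3.60 in Sham and -1.63, -0.14, and 1.99 in I/R. Nefh, whose heavily phosphorylated tail extends from the filament, was 0.55, 0.86, and 1.31 in Sham and -3.61, -2.78, and -1.26 in I/R. The Sham arrays were close together, while the I/R arrays spread over more than the whole Sham range, with I/R 3 nearest to Sham. Nefl fell by 3.04 on the log2 scale (SE 0.83, adjusted p = 0.0404), or 8.23-fold. Nefm fell by 3.37 (SE 0.92, adjusted p = 0.0404), or 10.3-fold, and Nefh fell by 3.46 (SE 0.79, adjusted p = 0.0396), or 10.98-fold.

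Ina, the fourth subunit of central neurofilaments, was 2.80, 3.39, and 3.23 in Sham and -0.64, 0.40, and 2.11 in I/R. It fell by 2.52 (SE 0.79, adjusted p = 0.0454), or 5.73-fold. Prph was a dim probe that varied more between the Sham arrays, at -2.21, -2.97, and -1.41, and was -4.55, -4.18, and -3.34 in I/R. It fell by 1.83 (SE 0.52, adjusted p = 0.0408), or 3.54-fold.

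**Figure D1:**
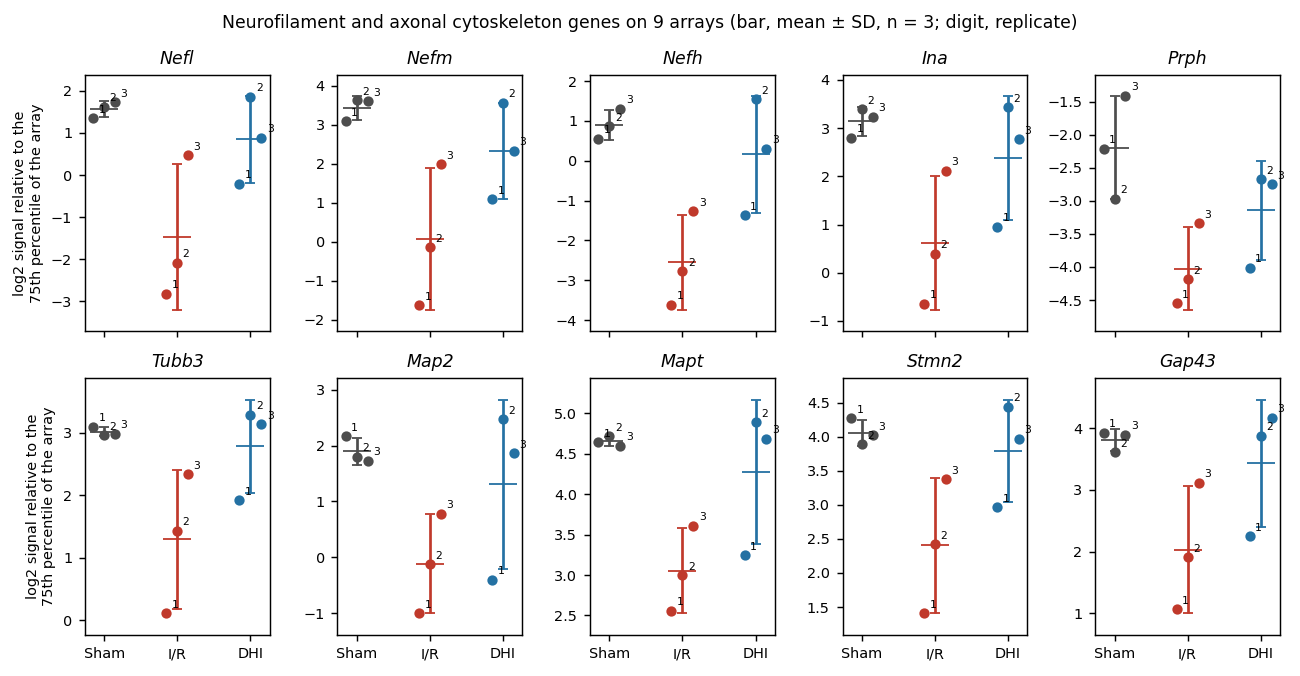
Log2 signal minus the array's 75th percentile (y axis, a different range in each panel) by group (x axis). Points are arrays with their replicate number, and bars are the mean ± SD (n = 3). In each panel the Sham points lie above all I/R points, and DHI 1 lies below I/R 3 while DHI 2 and DHI 3 lie above it.

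The microtubule genes were also lower, by less than the neurofilament chains. Tubb3 was 3.10, 2.97, and 2.99 in Sham and 0.11, 1.44, and 2.34 in I/R. Map2, the dendritic microtubule-binding protein, was 2.17, 1.802, and 1.73 in Sham and -1.0003, -0.12, and 0.78 in I/R. Mapt was 4.65, 4.72, and 4.60 in Sham and 2.56, 3.00, and 3.61 in I/R. The SD between Sham arrays was 0.0731 for Tubb3 and 0.0597 for Mapt, the smallest of the 10 genes, while the I/R arrays differed by over 1 log2 unit for all 3 genes. Tubb3 fell by 1.73 (SE 0.56, adjusted p = 0.0489), or 3.31-fold, and Mapt fell by 1.60 (SE 0.44, adjusted p = 0.0405), or 3.03-fold. Map2 had a log2 fold change of -2.02 (SE 0.73, unadjusted p = 0.0250, adjusted p = 0.0631).

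The growth cone genes differed by a similar amount. Stmn2 was 4.27, 3.89, and 4.02 in Sham and 1.41, 2.43, and 3.38 in I/R, and it fell by 1.66 (SE 0.53, adjusted p = 0.0460), or 3.16-fold. Gap43, a gene known for its induction during axonal sprouting, was 3.93, 3.61, and 3.89 in Sham and 1.06, 1.91, and 3.12 in I/R. Its log2 fold change was -1.78 (SE 0.61, unadjusted p = 0.0196, adjusted p = 0.0551), so Gap43 was lower and not higher in the I/R hemisphere at day 14. The second probes of Mapt and Stmn2 gave log2 fold changes of -1.58 (adjusted p = 0.0400) and -1.82 (adjusted p = 0.0473). The brighter minus the dimmer probe did not differ between groups in any comparison beyond an exact permutation p of 0.2.

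The adjusted calls depended on single arrays. Without any single Sham array (1, 2, or 3), or without I/R 1, without I/R 2, or without DHI 3, 0 of the 10 genes passed the adjusted p, when at most 0.00421% of all tested probes passed it. Without I/R 3 or without DHI 1 all 10 passed it, with 45.4% and 51.1% of all tested probes, and without DHI 2 it was 8. The log2 fold changes stayed negative for all 10 genes without any single array, between -4.32 and -1.13. At the methods' thresholds, Map2 lost its call on leaving out Sham 1 or 2 or I/R 1 or 2, with p up to 0.0879, and Gap43 lost it on leaving out Sham 1 or I/R 1 or 2, with p up to 0.0701. The other 8 genes were called without each array in turn.

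Next, DHI was compared with I/R, which asks whether the injection was accompanied by other levels of these transcripts. All 10 genes had higher means in DHI, with log2 fold changes from 0.88 for Prph to 2.71 for Nefh and a median of 1.46, where that of all tested probes was 0.10. A total of 6, Nefl, Nefm, Nefh, Tubb3, Mapt, and Stmn2, were higher at the methods' thresholds, against 21.9% of the tested probes in either direction and 11.5% higher. Of the 9 neuron markers, 7 were higher at the same thresholds, and their median log2 fold change was 1.91. The I/R arrays enter both this comparison and the one with Sham, so the differences of the 2 are not independent. None of the 10 passed the adjusted p (0.196 to 0.267 with limma), as for all but 0.00421% of the tested probes. In all, 6 of the 10 had an unadjusted p under 0.05 with limma, against 25.4% of the tested probes, and 0 of the 10 with the methods' t-test, against 4.26%. The limma model shares one estimate of the spread over all 9 arrays, so the Sham arrays enter these SEs and p-values. With only the 2 groups compared, 1 of the 10 was called at the methods' thresholds, against 9.05% of the tested probes.

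Nefh was -1.37, 1.55, and 0.31 in DHI, a difference of 2.71 from I/R (SE 0.79, unadjusted p = 0.00916, adjusted p = 0.196). Nefl was -0.20, 1.86, and 0.88, a difference of 2.32 (SE 0.83, unadjusted p = 0.0237, adjusted p = 0.196). Nefm was 1.09, 3.57, and 2.34, a difference of 2.26 (SE 0.92, unadjusted p = 0.0387, adjusted p = 0.196). For each chain DHI 2 stood at or above the lowest Sham array, DHI 3 between Sham and I/R, and DHI 1 below I/R 3. Ina was 0.95, 3.44, and 2.76 in DHI, a difference of 1.76 (SE 0.79, unadjusted p = 0.0569, adjusted p = 0.199). Prph was -4.01, -2.67, and -2.75, a difference of 0.88 (SE 0.52, unadjusted p = 0.131, adjusted p = 0.267). Neither passed the methods' thresholds.

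Tubb3 was 1.93, 3.29, and 3.14 in DHI, a difference of 1.49 from I/R (SE 0.56, unadjusted p = 0.0293, adjusted p = 0.196). Mapt was 3.25, 4.89, and 4.69, a difference of 1.22 (SE 0.44, unadjusted p = 0.0244, adjusted p = 0.196). Map2 was -0.40, 2.47, and 1.87, a difference of 1.43 (SE 0.73, unadjusted p = 0.0872, adjusted p = 0.224). For the representative probes of these microtubule genes both DHI 2 and DHI 3 were above the lowest Sham array. Stmn2 was 2.97, 4.44, and 3.97, a difference of 1.39 (SE 0.53, unadjusted p = 0.0294, adjusted p = 0.196). The second probe of Mapt differed by 1.03 (unadjusted p = 0.0413 with limma) and passed the methods' thresholds. That of Stmn2 differed by 1.25 (unadjusted p = 0.0643 with limma) and did not. Gap43 was 2.25, 3.87, and 4.17, a difference of 1.40 (SE 0.61, unadjusted p = 0.0512, adjusted p = 0.197), and DHI 3 was the highest of all 9 arrays for it.

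**Figure D2:**
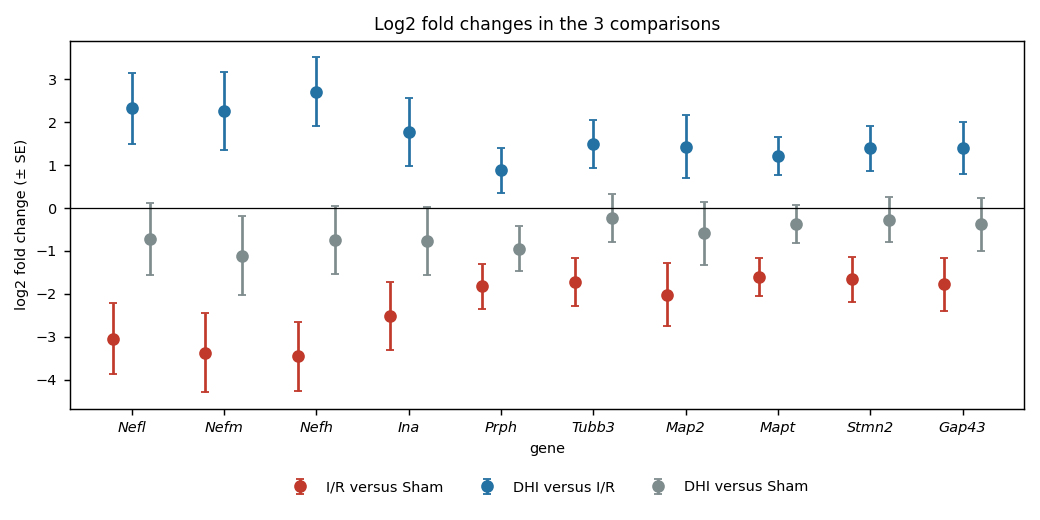
Log2 fold change with its SE (y axis) of each gene (x axis) in the 3 comparisons, from the model over 9 arrays. I/R versus Sham lies between -3.46 and -1.60, DHI versus I/R between 0.88 and 2.71, and DHI versus Sham between -1.11 and -0.23.

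The DHI arrays differed among themselves. For all 10 genes DHI 1 lay below I/R 3, while DHI 2 and DHI 3 lay above all 3 I/R arrays, so the groups overlapped for each gene. This arrangement was shared by 27.8% of the 23724 tested probes with a value on every array. DHI 1 lay above I/R 1 and I/R 2 for 9 genes, with Map2 as the exception, against 29.7% of those probes. Groups without overlap in DHI versus I/R were found for 9.54% of all tested probes. Without DHI 1, all 10 genes were higher at the methods' thresholds (1.31 to 3.48 on the log2 scale) and 9 rose with an adjusted p under 0.05, when 45.2% and 44.7% of all tested probes were called. On leaving out I/R 1 or 2, or DHI 2 or 3, 1 of the 10 genes, Nefh, was called at the methods' thresholds, when 5.82%, 6.99%, 3.95%, and 4.75% of all tested probes were called. Nefh was called in all alternatives tried but the methods' t-test, where its p was 0.0674.

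On the I/R and DHI arrays the summed neuron markers tended to be higher where the 10 genes were higher. The summed microglia and macrophage markers went the opposite way. I/R 1, with the lowest summed neuron markers, was the lowest I/R array for all 10 genes, and I/R 3, with the highest, was the highest for all 10. Of the tested probes with a value on every array, 24.1% had increasing levels in the order I/R 1, I/R 2, I/R 3, and 34.0% were highest on I/R 3 among the I/R arrays. DHI 1 had the lowest neuron markers and the highest microglia and macrophage markers of its group. All 9 neuron markers and all 7 microglia and macrophage markers were above background on all 9 arrays. The summed choroid plexus markers followed neither list, since they were high on DHI 3 and I/R 3 as well as on DHI 1. That sum came mostly from Ttr on these arrays (log2 levels of 6.20, 6.53, and 7.05). Folr1 differed from it, at -1.30, -0.76, and -0.27 on I/R 1, 2, and 3 and at most -4.03 in Sham. The part of these cell types in the differences was not tested.

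**Figure D3:**
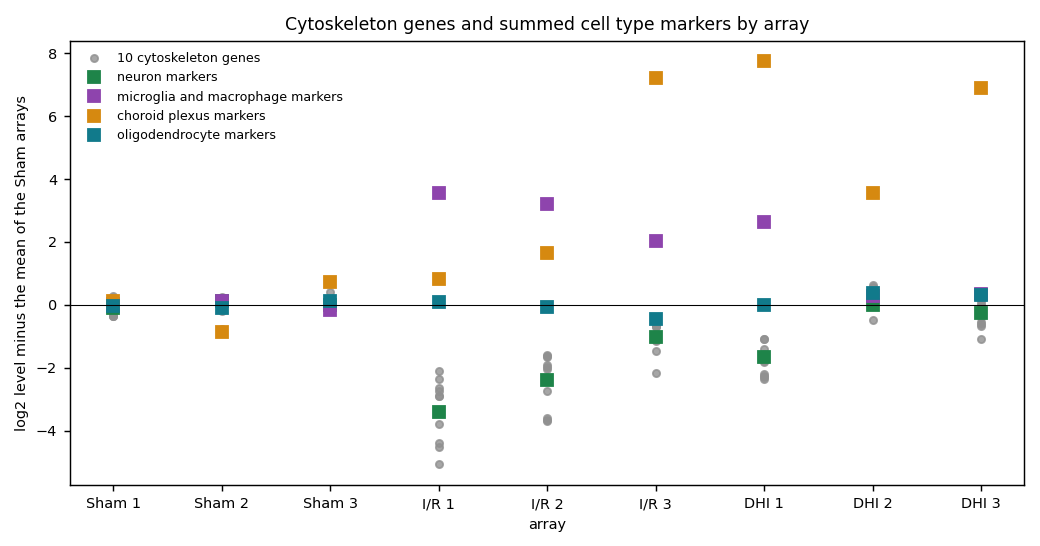
Log2 level of each gene (gray points) and log2 of the summed level of cell type markers (colored squares) on each array (x axis), minus the mean of the Sham arrays (y axis). The neuron markers lie at -3.40, -2.37, and -1.01 in I/R and -1.65, 0.01, and -0.26 in DHI, within the range of the gray points on all I/R and DHI arrays.

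Finally, DHI was compared with Sham, which asks how far the treated hemispheres stood from uninjured ones. All 10 genes had lower means in DHI, from -0.23 for Tubb3 to -1.11 for Nefm. None passed the methods' thresholds, against 3.58% of the tested probes, and with limma 0 had an unadjusted p under 0.05 (0.109 to 0.690, adjusted p 0.709 to 0.859), against 5.45% of the probes. With SEs of 0.44 to 0.92, these p-values do not show that the levels were alike. Nefm was 3.44 ± 0.30 in Sham and 2.33 ± 1.24 in DHI (SD, n = 3), and Tubb3 was 3.02 ± 0.0731 and 2.79 ± 0.749. DHI 1 was below all Sham arrays for all 10 genes, against 48.5% of the tested probes with a value on every array. DHI 2 was at or above the lowest Sham array for all 10, against 76.0% of those probes. DHI 3 was so for 6, against 73.5%, the exceptions being Nefl, Nefm, Nefh, and Ina. Without DHI 1, the difference changed sign for Nefh, Tubb3, Map2, Mapt, Stmn2, and Gap43, at 0.02 to 0.27, and was -0.51 at the lowest for the other 4.

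The order of the group means was Sham, DHI, I/R for all 10 genes. For the representative probes, only Sham and I/R had groups without overlap, and DHI and Sham overlapped for all 10 genes, where 18.6% of all tested probes had DHI and Sham groups apart and 8.34% had DHI lower.

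Differences between genes on the same array do not depend on how arrays were scaled. They were set first against the median of 9 neuron markers (Rbfox3, Snap25, Syt1, Syp, Eno2, Slc17a7, Camk2a, Gad1, and Gad2) on each array. No gene had groups without overlap in any of the 3 comparisons, and the exact two-sided permutation p was 0.2 to 1.0, where 3 against 3 arrays cannot go below 0.1. Treated the same way, 80.2% of all tested probes had groups apart in I/R versus Sham, 0.316% in DHI versus I/R, and 4.59% in DHI versus Sham. The median passes from one marker to another between arrays, so the mean of the 9 markers was also used, a choice made after seeing the data. Against that mean, 6 genes had groups without overlap in I/R versus Sham, each with an exact permutation p of 0.1. Of these, 4 were higher in I/R, as were 87.2% of all tested probes treated the same way, and 2 were lower, as were 0.451% of the probes.

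Nefm and Nefh were the genes that were lower relative to the neuron markers in I/R. Nefh minus the marker mean was -0.53, -0.30, and 0.29 in Sham and -1.11, -1.12, and -1.26 in I/R, a difference of -0.98. Nefm minus the marker mean was 2.01, 2.46, and 2.58 in Sham and 0.87, 1.52, and 1.99 in I/R, a difference of -0.89. All 3 I/R arrays agreed closely for Nefh, though they differed by over 2 log2 units before the markers were subtracted. Nefl went the same way by -0.57 with overlap (exact permutation p = 0.3), and Ina differed by -0.04 (exact permutation p = 0.8).

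Tubb3, Mapt, Stmn2, and Gap43 were higher relative to the neuron markers in I/R, by 0.75, 0.87, 0.82, and 0.69, the direction of most probes on the array. Gap43 minus the marker mean was 2.85, 2.45, and 2.88 in Sham and 3.56, 3.57, and 3.12 in I/R. Mapt minus the marker mean was 3.57, 3.55, and 3.58 in Sham and 5.06, 4.65, and 3.61 in I/R, so its groups were separated by I/R 3 by a small margin. Map2 (0.46, exact permutation p = 0.2) and Prph (0.65, exact permutation p = 0.5) were higher with overlap. Thus these 4 genes had lower signals in I/R than in Sham, but less so than the mean neuron marker, while Nefm and Nefh were lower by more than it. Leaving out 1 marker at a time kept each of the 10 signs but that of Ina. Tubb3, Stmn2, Gap43, and Nefh remained without overlap in all 9 such repeats, Mapt in 6, and Nefm in 5.

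In DHI versus I/R, Nefh had groups without overlap against the marker mean, at -0.59, 0.34, and -0.55 in DHI, a difference of 0.90 (exact permutation p = 0.1), where 0.164% of all tested probes were apart in that direction. The other 9 genes overlapped (exact permutation p 0.2 to 0.8). In DHI versus Sham, Tubb3 (0.43) and Mapt (0.28) had groups without overlap (exact permutation p = 0.1 for both), where 18.4% of the probes were apart in that direction, and the other 8 overlapped. None of these p-values passes an adjustment over the 10 genes, since 0.1 is the smallest possible.

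**Figure D4:**
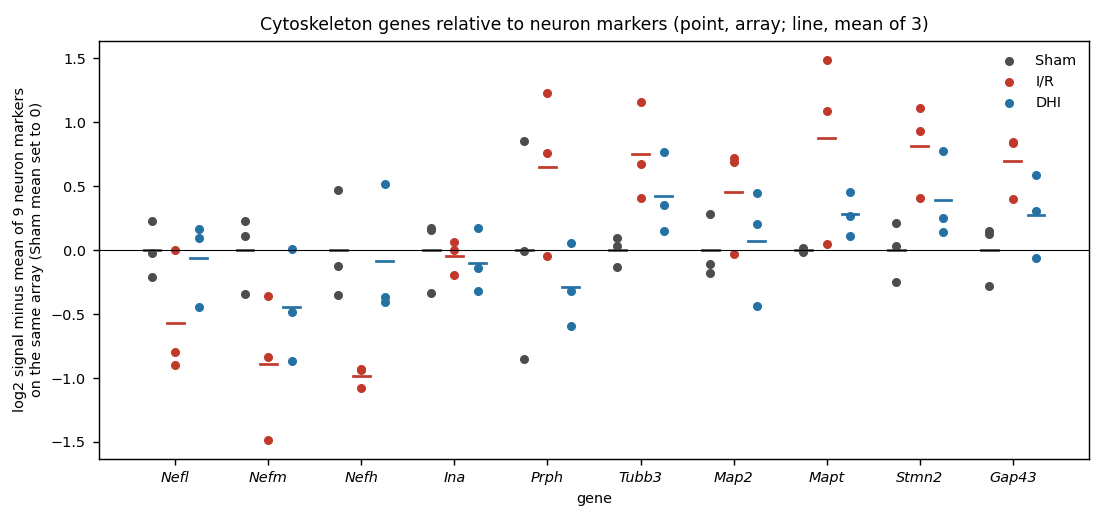
Log2 signal of each gene (x axis) minus the mean of 9 neuron markers on the same array, with the Sham mean of each gene set to 0 (y axis). Points are arrays and lines are means of 3. The I/R points of Nefm and Nefh lie below their Sham points, and those of Tubb3, Mapt, Stmn2, and Gap43 above them.

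The 3 neurofilament chains and the other 7 genes were also set against each other on each array, a split made after their values were seen and therefore given with no test. The mean of the chains minus the mean of the others was -1.01, -0.45, and -0.51 in Sham, -2.53, -2.36, and -1.31 in I/R, and -1.15, -0.49, and -1.37 in DHI. The split placed the 3 largest falls on one side, so that a lower value in I/R than in Sham follows from it.

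Among pairs of genes, and between the brighter and dimmer probes of Mapt and of Stmn2, 30 tests were run within arrays. Tubb3 minus Nefl was 1.45 in Sham and 2.77 in I/R, a difference of 1.31 with no overlap (exact permutation p = 0.1, adjusted p = 0.692). Nefm minus Nefl differed by -0.39 between DHI and Sham with no overlap (exact permutation p = 0.1, adjusted p = 0.692). Nefh minus Nefl (-0.42), Nefh minus Nefm (-0.09), Mapt minus Map2 (0.42), and Gap43 minus Stmn2 (-0.12) overlapped in I/R versus Sham, with exact permutation p of 0.3 to 0.9.

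Across the 9 arrays the 10 genes followed one another. Pearson's r was 0.84 to 0.99 over the 45 pairs, with a median of 0.96, lowest for Prph with Tubb3 and highest for Tubb3 with Stmn2. The arrays fall into groups and share their tissue composition, so these values are descriptions. Among 15575 symbols compared, the 5 outside the list with the highest r with Nefl were Inpp5j (0.998), Syp (0.997), Tmem59l (0.997), Chn1 (0.995), and Rab6b (0.995), of which Syp encodes a synaptic vesicle protein. Those with the highest r with Gap43 were LOC100364190 (0.996), Mgat4c (0.995), Ccdc106 (0.994), Rundc3b (0.994), and Bex1 (0.994).

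Other genes of the axon were followed in lists chosen by function. For I/R versus Sham, the shares of all tested probes to set beside their counts are 22.3% lower at the methods' thresholds and 15.8% that fell by the adjusted p. Of 9 genes of the spectrin skeleton and the axon initial segment, 8 were lower at the methods' thresholds and 7 fell with an adjusted p under 0.05, with a median of -1.99. Scn8a, a sodium channel of the initial segment and nodes, fell by 2.92 (adjusted p = 0.0396). Of 10 axonal transport motor genes, 9 were lower and 8 fell, with a median of -1.23. Kif5a, a neuronal kinesin that carries neurofilaments, fell by 2.65 (adjusted p = 0.0396), and Dync1i1, a dynein intermediate chain, fell by 2.09 (adjusted p = 0.0458). Kif5b, the ubiquitous form, differed by 0.21 (adjusted p = 0.300). Kif5b was named after its value was seen. Of 9 kinase genes that act on neurofilaments and tau, 7 were lower and 6 fell, with a median of -0.997, led by the Cdk5 activators Cdk5r1 (-1.59, adjusted p = 0.0396) and Cdk5r2 (-1.36, adjusted p = 0.0405).

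Tubulins, microtubule-associated proteins, and growth cone genes were mixed, and the shares of all tested probes were 22.3% lower and 20.8% higher, with 15.8% that fell and 16.7% that rose. Of 10 other tubulins, 6 were lower and 2 higher, with 4 that fell and 1 that rose and a median of -0.73. Tuba4a fell by 1.98 (adjusted p = 0.0396), while Tubb6, a beta-tubulin of non-neuronal cells, rose by 2.87 (adjusted p = 0.0404). Tubb2a (-1.06, adjusted p = 0.0529) and Tubb2b (0.67, adjusted p = 0.0664) did not pass the adjusted p. Of 11 other microtubule-associated protein genes, 7 fell and 1 rose, with a median of -1.54. Dclk1 fell by 2.23 (adjusted p = 0.0428) and Map7d2 fell by 2.12 (adjusted p = 0.0416), and Mapre1, which tracks growing microtubule ends, rose by 0.83 (adjusted p = 0.0431). Of 11 other growth cone and stathmin genes, 6 were lower and 1 higher and 4 fell, with a median of -0.92. Stmn3 fell by 2.31 (adjusted p = 0.0415) and Stmn1 fell by 1.54 (adjusted p = 0.0396), and Marcks was 1.02 higher (adjusted p = 0.0556).

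Genes of axon loss and proteolysis and of glial intermediate filaments included many that rose, where 20.8% of all tested probes were higher at the methods' thresholds and 16.7% rose. Of 8 genes of axon loss and proteolysis, 4 were higher and 3 lower, with 3 that rose and 2 that fell. The caspase gene Casp6 rose by 2.31 (adjusted p = 0.0396) and the calpain gene Capn1 by 2.00 (adjusted p = 0.0396). Uchl1, an abundant ubiquitin hydrolase of neurons, fell by 1.78 (adjusted p = 0.0466), and Nmnat2, a survival factor of axons, fell by 1.45 (adjusted p = 0.0462). Of 5 intermediate filament genes of glial and other non-neuronal cells, 4 rose and 0 fell, with a median of 1.87. Gfap, the astrocyte filament, rose by 3.63 and Vim by 3.62 (adjusted p = 0.0396 for both).

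Among cell type markers, all 9 neuron markers were lower at the methods' thresholds and 7 fell, with a median of -2.66, against the same 22.3% and 15.8% of all tested probes. The 6 oligodendrocyte markers, genes of the myelin around axons, had log2 fold changes of -0.24 to 0.43 in I/R versus Sham, and 0 passed either rule or had an unadjusted p under 0.05 with limma, against 50.7% of all tested probes. For the counts that follow, 20.8% of all tested probes were higher at the methods' thresholds and 16.7% rose. A total of 6 of 7 microglia and macrophage markers rose, led by Cd68 at 6.69 (adjusted p = 0.0396). The other, Cx3cr1, went the opposite way, at -0.998 (adjusted p = 0.156 with limma). Of the 6 astrocyte markers, 3 were higher and 2 lower at the methods' thresholds, with 2 that rose and 0 that fell. The lower ones were the glutamate transporter Slc1a2 (-1.12, adjusted p = 0.0856) and the aldolase Aldoc (-0.70, adjusted p = 0.0622). A total of 2 of 5 endothelial markers rose, and 1 of 3 tested choroid plexus markers rose.

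In DHI versus I/R, none of these lists had a gene past the adjusted p (0 in each list with limma). At the methods' thresholds, 7 of 9 spectrin and initial segment genes, 6 of 9 kinase genes, 5 of 10 motor genes, 4 of 10 tubulins, 3 of 11 growth cone genes, and 3 of 11 microtubule-associated protein genes were higher in DHI, against 11.5% of all tested probes. Scn8a had a log2 fold change of 2.46 (adjusted p = 0.196), Kif5a of 1.91 (adjusted p = 0.196), and Stmn3 of 1.74 (adjusted p = 0.196). In contrast, 3 of 5 non-neuronal intermediate filament genes and 4 of 8 genes of axon loss and proteolysis were lower in DHI, against 10.5% of the probes. Vim had a log2 fold change of -2.25 and Gfap of -2.004 (adjusted p = 0.196 for both). Among the cell type markers, 7 of 9 for neurons were higher and 5 of 7 for microglia and macrophages were lower, against the same shares. At most 1 marker of each other cell type was called. In DHI versus Sham, Gfap was the single gene of these axonal and filament lists past the methods' thresholds, higher in DHI at 1.62 (unadjusted p = 0.0418, adjusted p = 0.709).

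**Figure D5:**
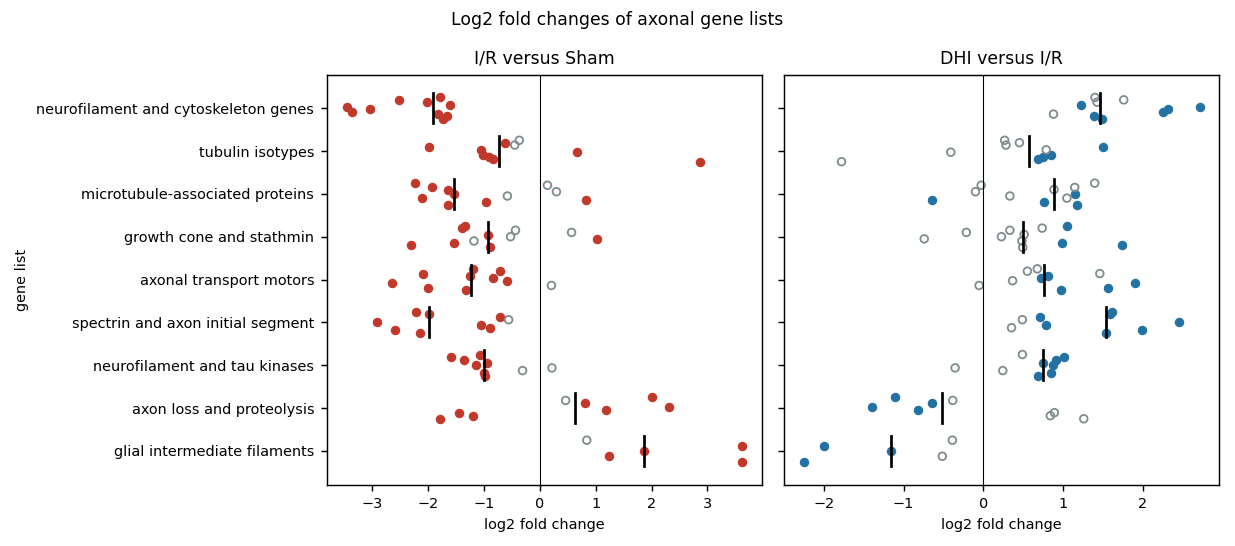
Log2 fold change (x axis) of each tested gene in 9 lists (y axis) for I/R versus Sham and DHI versus I/R. Filled points passed the methods' thresholds, open points did not, and black lines are medians. In I/R versus Sham the medians lie left of 0 for the first 7 lists and right of it for axon loss and proteolysis (0.63) and glial intermediate filaments (1.87), and in DHI versus I/R each median has the opposite sign.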

How the data were processed

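Gene expression in the infarcted hemisphere was measured with one-color Agilent SurePrint G3 Rat arrays, 3 each for Sham, I/R, and DHI. The sample labels gave the groups and replicate numbers. For each array the authors deposited the spot intensity given by Feature Extraction 10.7.1.1 (version from the submitters' processing notes), corrected for background and not scaled between arrays. A table of log2 values for the whole series, 1 per probe, was also deposited by the authors, which was used as an alternative. No column of values was left out (0 columns). The number of arrays limits the precision.

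Control and outlier spots were left out, and each probe's value was the mean log2 intensity of its spots minus the log2 of the array's 75th percentile. A probe entered the tests if it exceeded background on each array of some group (23747 of 30367). A single model over 9 arrays was fitted in R 4.3.3 with limma 3.58.1 (lmFit and eBayes, 6 residual degrees of freedom) and tested on simulated data. The methods' thresholds are an unadjusted p under 0.05 and an FC over 1.5, and adjusted p-values are Benjamini-Hochberg over all tested probes. Differences within arrays were compared by exact two-sided permutation tests.

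The 10 genes, the gene lists, and the tests were chosen with earlier results of these data known. The text names the 10 genes, up to 2 with the largest rise and fall of each axonal list in I/R versus Sham, Gfap and Vim, and the 5 genes most like Nefl and Gap43, and other genes are named where a value is singled out. A result that this rule would name is not reported here. A list is described by its counts and median beside those of all tested probes. Kif1a and Klc2 could not be matched on the array by symbol. The alternatives were quantile normalization, no scaling, normexp (offset 50), the authors' table, no filter or a filter on all 9 arrays, only the 2 groups compared, the methods' t-test, a block for the replicate number, the mean of a gene's probes, and leaving out each array in turn. The alternatives of the mean of the neuron markers and the mean without 1 marker, and the split into chains and other genes were added after seeing the data.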

Additional observations from a re-analysis of the deposited data

How the results depend on the processing

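In I/R versus Sham, all 10 genes kept their direction and, at the methods' thresholds, counts stayed within 1.5 times the 10 called under all alternatives. The 8 calls at the adjusted p (32.4% of all probes) became 0 with no scaling (0.00421%), 5 with no filter on dim probes (16.6%), and 2 with the methods' t-test (32.5%), and 0 to 10 without single arrays (0% to 51.1%). They became 6 with quantile normalization (33.9%) and 6 with the authors' table (34.1%), where Tubb3 and Stmn2 lost the adjusted call. The other alternatives gave 8 to 10. The fall with no scaling was thus shared by all probes and that with the t-test was not. At the methods' thresholds, Tubb3 was not called by the methods' t-test (unadjusted p = 0.0562). In DHI versus I/R, the 6 calls (21.9% of all probes) became 1 with no scaling (31.3%), 1 with only the 2 groups compared (9.05%), 0 with the methods' t-test (1.97%), and 1 to 10 without single arrays (3.95% to 45.2%), so that with no scaling the 10 genes lost calls while all probes gained them, and the 0 calls at the adjusted p became 0 to 9. Of the values of single genes under the alternatives in that comparison, 39 lost the call, 11 gained it, and 140 kept their side, and none reversed. In DHI versus Sham, the 0 calls became 1 with no scaling (Prph, -1.21, unadjusted p = 0.0414) and 0 to 1 without single arrays (Prph without Sham 2, -1.33, unadjusted p = 0.0419). Without DHI 1 the sign reversed for the representative probes of 6 genes. Without single arrays their differences ranged from -1.44 to 0.0218 for Nefh, -0.49 to 0.20 for Tubb3, and -1.17 to 0.27 for Map2. They ranged from -0.69 to 0.14 for Mapt, -0.59 to 0.15 for Stmn2, and -0.75 to 0.21 for Gap43. No scaling moved the median of all probes from -0.10 to 0.10 in I/R versus Sham, from 0.10 to -0.36 in DHI versus I/R, and from 0.02 to -0.25 in DHI versus Sham, and all 10 genes kept their direction. Against the median of the neuron markers, 0 genes had groups without overlap in each comparison, and without single arrays 0 to 5 in I/R versus Sham, 0 to 3 in DHI versus I/R, and 0 to 5 in DHI versus Sham. With their mean these counts were 6, 1, and 2, against 87.7%, 3.1%, and 18.8% of all probes. The replicate number was not taken to pair the samples, since 4 of 9 pairs with the same number had a correlation of deviations over 0.1 (r -0.34 to 0.48) and not every array correlated best with its own number, and with the replicate number as a block 10, 8, and 0 genes passed the methods' thresholds and 9, 0, and 0 the adjusted p, in the order of the comparisons above. The causes of these changes were not tested.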
